A study of Homo sapiens with 8 samples.

Results

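The 7 genes CDKN1A, CDKN1B, CDKN1C, CDKN2A, CDKN2B, CDKN2C and CDKN2D encode the classical inhibitors of cyclin-dependent kinases (CDKs). They were taken by symbol from a count table of 26364 genes, and all 7 symbols are in it. RNA was sequenced from 2 stable clones of LN229, a human glioblastoma cell line, each left untreated or exposed to 50 µM temozolomide (TMZ), an alkylating chemotherapeutic, for 48 h. The Surv-GFP clone carries the plasmid pcDNA3.1-survivin-eGFP, which encodes Survivin with a working nuclear export signal fused to eGFP. Without TMZ this fusion is kept mainly in the cytoplasm. After TMZ, the paper reports, it accumulated in the nucleus, so the exposed Surv-GFP libraries do not stand for cytoplasmic Survivin alone. The SurvNESmut-GFP clone carries the same fusion with the export signal mutated (L96A and L98A) and kept mainly in the nucleus. Both clones grew in medium with 0.75 mg/ml G418, the drug that selects for the plasmid, and TMZ was added from a stock in DMSO. The sources used here do not say whether untreated cells received DMSO. Each of the 4 groups has 2 libraries, lettered a and b. Each construct is represented by 1 clone, so that the construct and other differences between the clones cannot be told apart. The paper describes its sequencing data as biological replicates, independent of each other, that were run in technical duplicate. It does not tie the letters to either, and every p-value below measures only the spread between letters, which may be technical.

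CDK inhibitors form a pair of families. Proteins of the CIP/KIP family, encoded by CDKN1A (p21), CDKN1B (p27) and CDKN1C (p57), bind complexes of cyclins with CDKs, CDK2 complexes above all. Proteins of the INK4 family, encoded by CDKN2A (p16), CDKN2B (p15), CDKN2C (p18) and CDKN2D (p19), bind CDK4 and CDK6 and keep them from D-type cyclins. Both keep the retinoblastoma protein (RB) bound to E2F factors, so that genes for DNA replication stay off. CDKN1A is well known to be induced by DNA damage, and the region of CDKN2A and CDKN2B is often deleted in glioblastoma.

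The libraries held between 15826923 and 18861603 counts on genes, and 14201 genes passed the filter on low counts and were tested. Of the 7 inhibitors 4 had counts and all 4 were tested, namely the 3 CIP/KIP genes and 1 of 4 INK4 genes, CDKN2D. Levels are given as CPM, counts relative to the TMM-scaled library size. Libraries of the same group resembled each other (r of at least 0.994 across genes) more than libraries of different groups (r of at most 0.986). The spread between letters was largest in exposed SurvNESmut-GFP. As chi-square per gene of a against b it was 5.75 there and 2.2 to 2.7 in the other groups. The model shares its estimate of the spread across all groups. Standard errors and p-values of comparisons that use exposed SurvNESmut-GFP may therefore be too small. BIRC5, which encodes Survivin and is carried by both plasmids, had 1113 to 2029 CPM in the Surv-GFP libraries and 252.6 to 414.4 CPM in the SurvNESmut-GFP libraries. Its counts do not separate the plasmid from the cell's own gene. Of the glioma markers, VIM had 2348 to 3783 CPM, TNC 896.8 to 2462, NES (nestin) 524.0 to 1005 and CD44 566.3 to 742.3. Also counted were S100B (14.3 to 798.4 CPM), FABP7 (5.73 to 188.1), EGFR (48.3 to 101.2) and SOX2 (19.4 to 92.6). NCAM1 had 52.2 to 65.1 CPM, PDGFRA 6.14 to 52.6, OLIG2 5.55 to 35.2 and SLC1A3 2.67 to 30.6. GFAP, in contrast, had 0 to 17 counts, SOX9 and AQP4 0 to 3 and ALDH1L1 0 in every library. MGMT, the repair gene for the methylated guanine that TMZ makes, had 0 counts in every library.

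The upstream sequences of CDKN1A, which rose with TMZ in both clones, and of CDKN1B and CDKN2D, which did not, are shown side by side. Each is the 250 bases before the annotated start, written 5′ to 3′ on the gene's strand, from RefSeq (GRCh38.p14). CDKN1A is at chr6:36678464-36678713 on the plus strand, CDKN1B at chr12:12717118-12717367 on the plus strand and CDKN2D at chr19:10568980-10569229 on the minus strand. Capitals mark the GC box, GGGCGG on either strand.
CDKN1A: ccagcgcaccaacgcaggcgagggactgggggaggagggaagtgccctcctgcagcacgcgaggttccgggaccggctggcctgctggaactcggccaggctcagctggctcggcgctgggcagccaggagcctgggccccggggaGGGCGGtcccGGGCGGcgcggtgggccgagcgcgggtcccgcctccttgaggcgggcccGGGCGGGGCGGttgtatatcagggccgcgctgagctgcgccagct
CDKN1B: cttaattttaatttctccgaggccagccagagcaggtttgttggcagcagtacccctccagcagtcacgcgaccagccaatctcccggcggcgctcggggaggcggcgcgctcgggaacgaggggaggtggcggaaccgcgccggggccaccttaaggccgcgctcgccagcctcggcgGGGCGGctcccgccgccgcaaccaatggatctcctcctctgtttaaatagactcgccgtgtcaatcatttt
CDKN2D: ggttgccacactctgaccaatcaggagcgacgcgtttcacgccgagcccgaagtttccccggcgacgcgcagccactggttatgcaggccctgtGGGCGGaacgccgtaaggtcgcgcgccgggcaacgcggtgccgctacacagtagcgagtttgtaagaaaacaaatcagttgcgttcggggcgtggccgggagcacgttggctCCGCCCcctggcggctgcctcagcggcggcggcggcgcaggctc
The CDKN1A window holds 4 GC boxes, of which the last pair overlap, the CDKN2D window 2 and the CDKN1B window 1. Of 34788 distinct windows of this length in the table, 42.6% hold at least 1. The CCAAT box was found 2 times in the CDKN1B window, 1 time in that of CDKN2D and not in that of CDKN1A (32.0% of windows hold it). No match was found in these 3 windows to TATAAA (10.8% of windows), to TTTCGCGC or TTTGGCGC, letters that E2F factors bind (0.957%), or to TTTGAA, the core of the cell cycle homology region (13.3%). All motifs were searched on both strands. A window was matched for 6 of the 7 inhibitors, CDKN1C being the other.

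CDKN1A, which encodes p21, rose steeply with TMZ in both clones and more steeply in Surv-GFP. Untreated Surv-GFP libraries had 86.6 (a) and 77.3 (b) CPM, and TMZ-exposed ones 907.6 and 975.2 CPM. Untreated SurvNESmut-GFP libraries had 117.4 and 119.0 CPM, and TMZ-exposed ones 428.7 and 491.8 CPM. No 2 groups overlapped: both exposed groups lay above both untreated ones, and the clone that was higher untreated was the lower one with TMZ. Groups of 2 libraries separate easily, here and below, and the share of all tested genes without overlap was not counted. The rise was 11.5-fold in Surv-GFP (log2 fold change 3.52 ± 0.07 SE, adjusted p = 1.02e-15, edgeR's quasi-likelihood F test with Benjamini-Hochberg adjustment over the 14201 genes). In SurvNESmut-GFP it was 3.89-fold (1.96 ± 0.07, adjusted p = 4.23e-12 by the same test). The 2 log2 fold changes differed by -1.56 ± 0.10 (SurvNESmut-GFP minus Surv-GFP, adjusted p = 5.06e-09). In the order of log2 fold changes, CDKN1A included, 75 of the 14201 tested genes (0.528%) stood at or above it in Surv-GFP. In SurvNESmut-GFP there were 102 (0.718%). In the reference annotation (GENCODE 29) 4.79% of its exon bases are shared with DINOL on the opposite strand, and the sources used here do not say how such reads were counted. In bulk RNA a lower level does not tell fewer cells with a transcript from less of it per cell.

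CDKN1B, which encodes p27, fell with TMZ in SurvNESmut-GFP. Surv-GFP libraries had 75.2 and 82.4 CPM untreated and 72.2 and 72.3 CPM with TMZ. SurvNESmut-GFP libraries had 72.9 and 70.7 CPM untreated and 36.7 and 42.9 CPM with TMZ. The exposed SurvNESmut-GFP libraries stood apart from the other 6, which lay close together. The fall in SurvNESmut-GFP was 1.81-fold (log2 fold change -0.85 ± 0.07, edgeR adjusted p = 1.1e-07). In Surv-GFP the log2 fold change was -0.12 with a 95% interval of -0.26 to 0.01, and it missed the threshold (edgeR adjusted p = 0.114). The 2 groups did not overlap, which with 2 libraries each says little. Fitted to the 4 Surv-GFP libraries alone, the log2 fold change was -0.13 and passed the threshold (edgeR adjusted p = 0.0456). Without Surv-GFP untreated replicate a it was -0.19 and without replicate b of that group -0.055 (edgeR adjusted p = 0.0647 and 0.607). The effects of the clones differed by -0.73 ± 0.10 (edgeR adjusted p = 2.27e-05).

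CDKN1C, which encodes p57 and lies in an imprinted gene cluster, was the inhibitor with the largest fall in Surv-GFP. There it had 193 (a) and 160 (b) counts untreated and 42 in each library with TMZ, or 10.5 and 8.83 against 2.25 and 2.41 CPM. SurvNESmut-GFP had 22 and 23 counts untreated and 9 and 14 with TMZ, or 1.19 and 1.28 against 0.526 and 0.883 CPM. The groups did not overlap in either clone, and untreated SurvNESmut-GFP already lay below exposed Surv-GFP. The fall in Surv-GFP was 4.14-fold (log2 fold change -2.05 ± 0.18, edgeR adjusted p = 4.91e-08), and 112 tested genes (0.789%) stood at or below it. In SurvNESmut-GFP the log2 fold change was -0.82 ± 0.36, which passed at the unadjusted p of 0.0359 but not after adjustment (edgeR adjusted p = 0.0829). Without SurvNESmut-GFP TMZ replicate b it was -1.22 and passed (edgeR adjusted p = 0.0452), and without replicate a of that group it was -0.48 (edgeR adjusted p = 0.443). The difference of the effects was 1.23 ± 0.43 (edgeR adjusted p = 0.0326), and its call rested on few counts. DESeq2 gave an adjusted p of 0.0746, and 5 of the 8 fits that each left out 1 library did not call it either. Without SurvNESmut-GFP TMZ replicate b the difference was 0.83 (edgeR adjusted p = 0.294), and without Surv-GFP untreated replicate a, Surv-GFP TMZ replicate a, or SurvNESmut-GFP untreated replicate a or b the adjusted p was 0.0748, 0.0713, 0.0827 and 0.065.

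CDKN2D, which encodes p19 and was the one INK4 gene with counts, fell by a like factor in both clones. Surv-GFP libraries had 13.3 and 12.6 CPM untreated and 8.502 and 8.839 CPM with TMZ. SurvNESmut-GFP libraries had 16.48 and 16.95 CPM untreated and 10.9 and 10.8 CPM with TMZ. Exposed libraries lay below untreated ones in both clones without overlap. The fall was 1.49-fold in Surv-GFP (log2 fold change -0.58 ± 0.11, edgeR adjusted p = 0.000194) and 1.53-fold in SurvNESmut-GFP (-0.62 ± 0.10, edgeR adjusted p = 0.000132). The difference of the effects was -0.04 with a 95% interval of -0.35 to 0.27 (edgeR adjusted p = 0.86), which leaves room for a difference of that size in either direction.

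**Figure D1:**
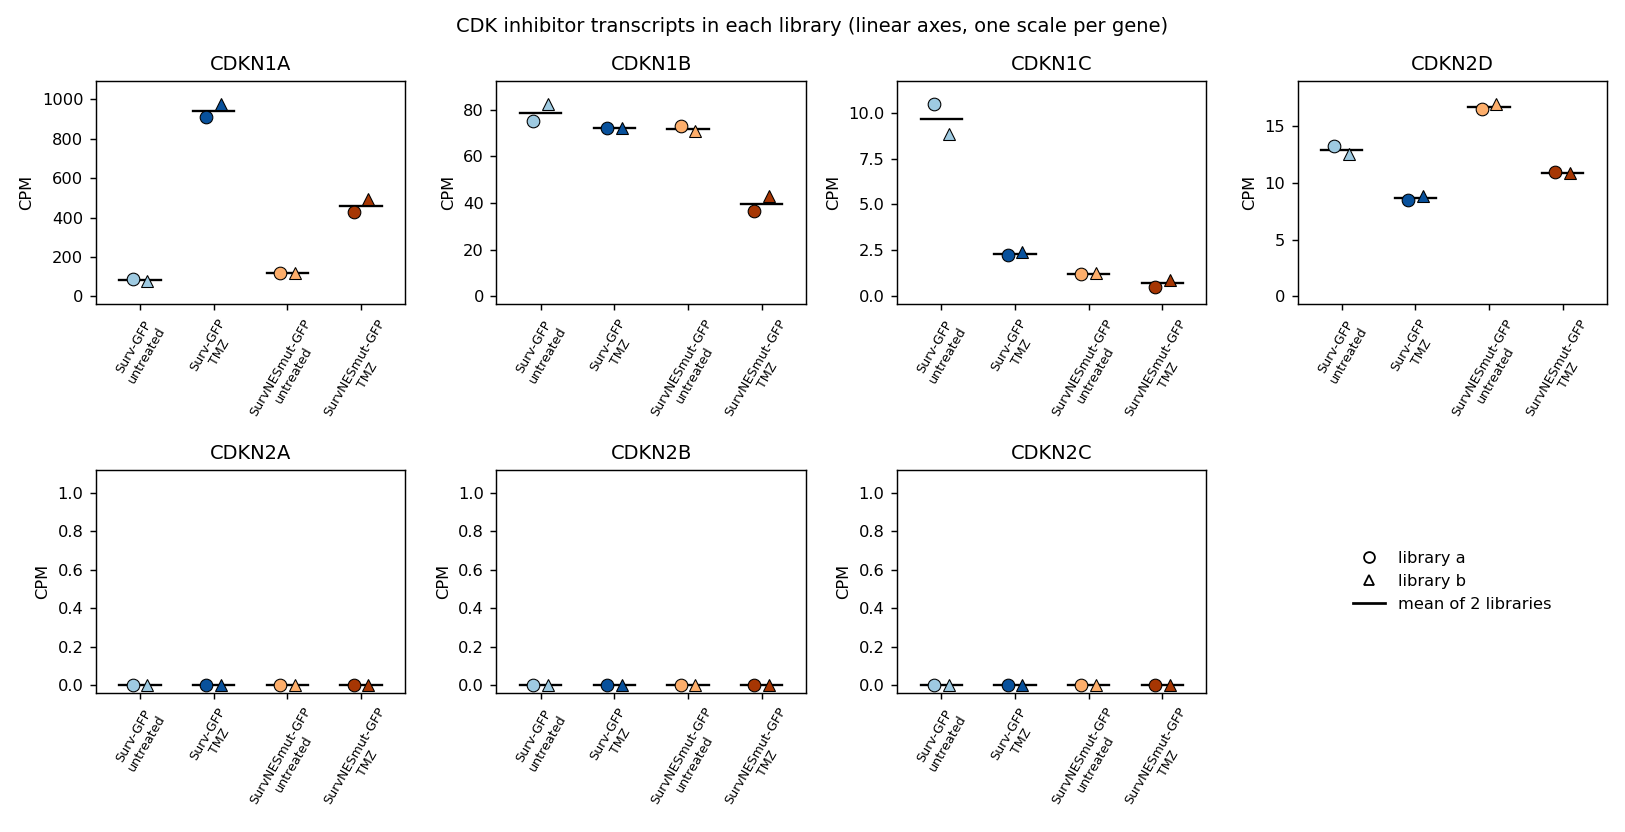
CPM (vertical axis, linear, one scale per gene) of the 7 CDK inhibitors in the 8 libraries, by clone and exposure. Circles are libraries a, triangles libraries b and lines the mean of both. CDKN1A was highest in the exposed groups of both clones, CDKN1B stood apart in exposed SurvNESmut-GFP, CDKN1C was highest in untreated Surv-GFP, and CDKN2A, CDKN2B and CDKN2C were at 0 throughout.

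Counted over the inhibitors, 1 of the 4 tested genes rose and 2 fell with TMZ in Surv-GFP, where 30.1% of all tested genes were called higher and 28.9% lower. In SurvNESmut-GFP 1 rose and 2 fell, against 18.6% and 19.1% of all tested genes. For the difference of the effects, 1 was higher in SurvNESmut-GFP and 2 were lower, against 16.6% and 20.2%. CDKN1C and CDKN2D were the genes that fell in Surv-GFP, and CDKN1B and CDKN2D those that fell in SurvNESmut-GFP. Both effects share their libraries with the difference, so that these counts do not stand for separate evidence.

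**Figure D2:**
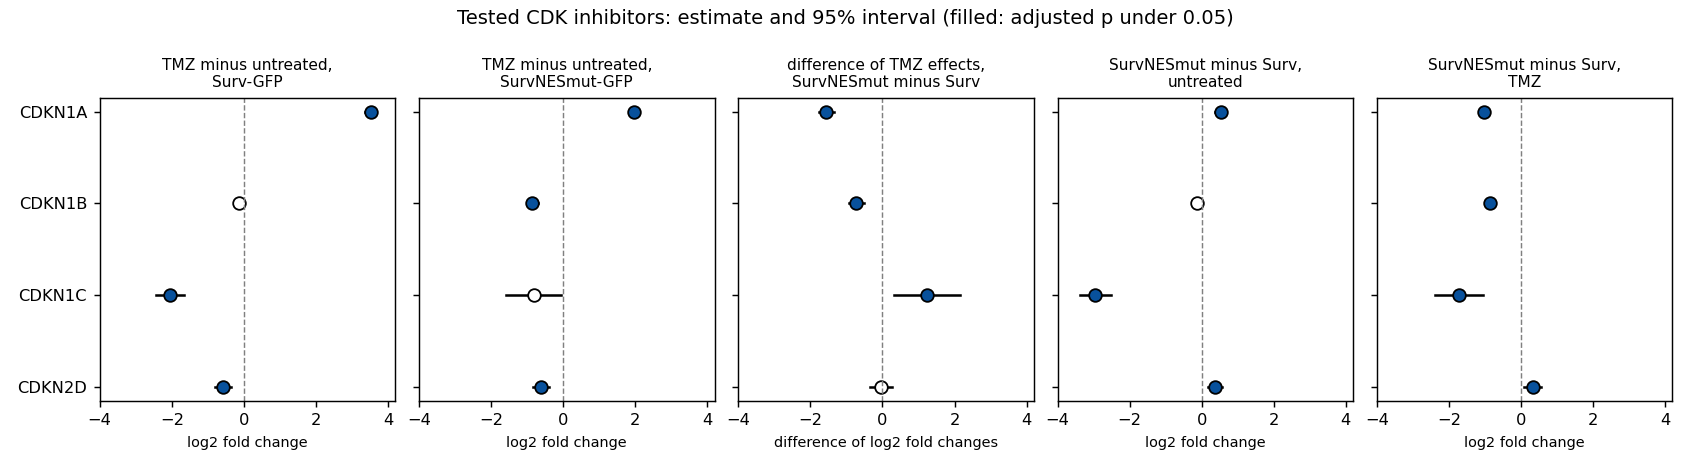
Log2 fold changes of the 4 tested CDK inhibitors (points) with 95% intervals (lines) in the 5 comparisons. Filled points have an adjusted p under 0.05. The TMZ effect on CDKN1A was 3.52 in Surv-GFP, against 1.96 in the other clone, the intervals of CDKN1C were the widest, and that of the CDKN2D difference ran from -0.35 to 0.27.

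Untreated, the clones already differed in these genes. CDKN1A was 1.44-fold higher in SurvNESmut-GFP (log2 fold change 0.53 ± 0.07, edgeR adjusted p = 6.53e-06) and CDKN2D 1.29-fold higher (0.37 ± 0.10, edgeR adjusted p = 0.00287). DESeq2 did not call the latter (adjusted p = 0.0679). CDKN1C was 7.78-fold lower in SurvNESmut-GFP (-2.96 ± 0.20, edgeR adjusted p = 1.86e-09). The log2 difference of CDKN1B was -0.13 with a 95% interval of -0.27 to 0.0047 (edgeR adjusted p = 0.0842). It crossed the threshold in 9 of 15 alternative analyses, with adjusted p between 0.00546 and 0.0487. Without Surv-GFP untreated replicate b, in contrast, it was -0.064 (edgeR adjusted p = 0.523). The 4 tested inhibitors thus held 2 higher and 1 lower gene, where 34.7% of all tested genes were higher and 29.4% lower.

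With TMZ the order of the clones turned for CDKN1A. It was 2.05-fold lower in SurvNESmut-GFP than in Surv-GFP (log2 fold change -1.03 ± 0.06, edgeR adjusted p = 5.37e-10). CDKN1B was 1.82-fold lower (-0.86 ± 0.07, edgeR adjusted p = 1.67e-08) and CDKN1C 3.31-fold lower (-1.73 ± 0.31, edgeR adjusted p = 0.000114). CDKN2D stayed higher, 1.26-fold (0.33 ± 0.11, edgeR adjusted p = 0.015). The last call was lost with DESeq2 (adjusted p = 0.124) and without Surv-GFP TMZ replicate a, SurvNESmut-GFP TMZ replicate a or SurvNESmut-GFP TMZ replicate b (adjusted p = 0.112, 0.0818 and 0.0604). Among all tested genes 34.5% were higher and 34.7% lower in this comparison, beside 1 higher and 3 lower inhibitors.

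Levels of different inhibitors were compared per length, as CPM per kb of the median coding transcript in GENCODE 29. In untreated Surv-GFP CDKN1B had 44.3 and CDKN1A 38.9 CPM per kb, followed by CDKN2D with 10.3 and CDKN1C with 5.45. The order within each of these pairs turned when the shortest transcript was used, and that of CDKN1A and CDKN1B also with the longest, so neither order is settled. With TMZ, CDKN1A had 447.4 CPM per kb in Surv-GFP, 218.8 in SurvNESmut-GFP, and came first under all 3 lengths. Of the summed level per kb of the 4 genes, CDKN1A made up 39.3% in untreated and 90.2% in exposed Surv-GFP, and 50.8% and 87.4% in SurvNESmut-GFP. CDKN1C made up 5.50% in untreated Surv-GFP and at most 0.631% in the other 3 groups.

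**Figure D3:**
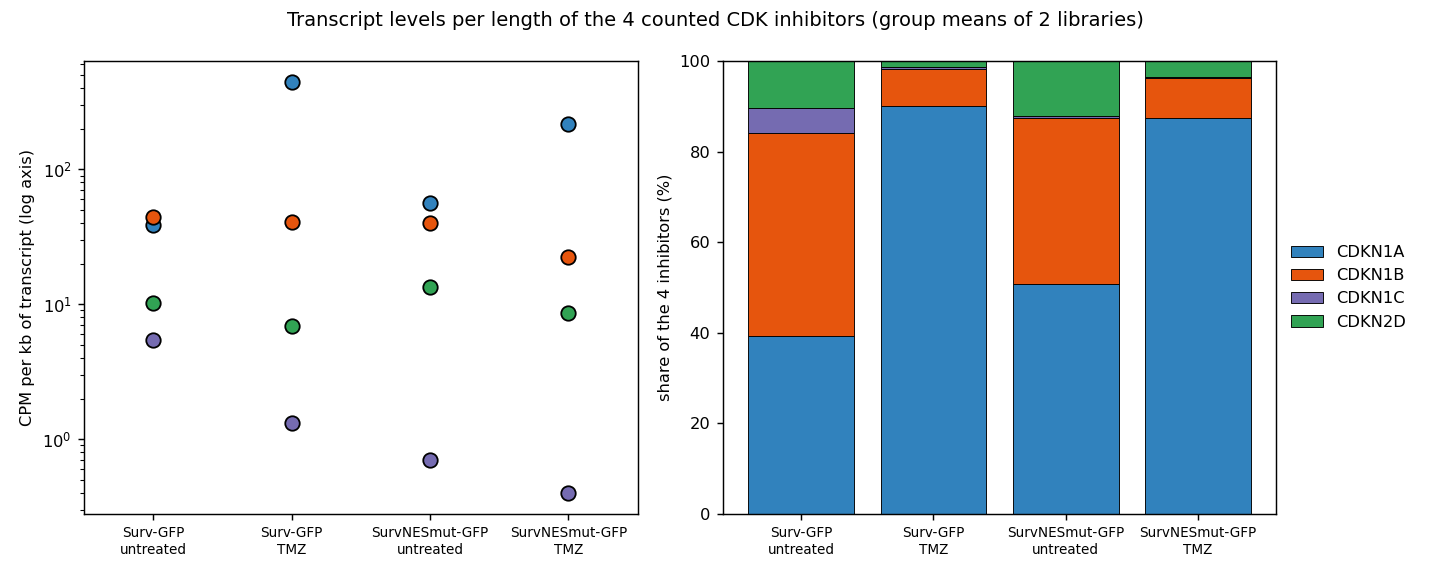
CPM per kb of the median coding transcript (left, log axis) and share of the summed level of the 4 counted inhibitors (right, %), as means of 2 libraries per group. CDKN1A took 90.2% of the sum in exposed Surv-GFP and 87.4% in exposed SurvNESmut-GFP.

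CDKN2A, CDKN2B and CDKN2C had 0 counts in all 8 libraries, before and after TMZ. CDKN2A encodes p16 and, in another reading frame, ARF. By counting error alone, 0 counts allow up to 3 counts per library, or 0.160 to 0.189 CPM. Genes next to CDKN2A and CDKN2B on chromosome 9 were counted. MTAP, a methionine salvage enzyme on one side, had 1275 to 2430 counts per library, and DMRTA1 on the other side 71 to 172. CDKN2B-AS1, a long non-coding RNA that runs antisense through the locus, had 45 to 108. It shares 341 bases with the exons of CDKN2A on the opposite strand, and the sources used here do not say whether the counting used strand. Of the 9 neighbours of this region that were tested, 2 rose and 5 fell with TMZ in Surv-GFP (median log2 fold change -0.27) and 0 rose and 4 fell in SurvNESmut-GFP (median -0.20). Of all tested genes 30.1% rose and 28.9% fell in Surv-GFP and 18.6% and 19.1% in SurvNESmut-GFP, with a median of 0.00 in each clone. MTAP fell in both clones (-0.39 and -0.48, edgeR adjusted p = 1.49e-05 and 7.72e-06). CDKN2B-AS1 fell in Surv-GFP (-0.93 ± 0.19, edgeR adjusted p = 0.000469), while its log2 fold change in SurvNESmut-GFP was 0.02 ± 0.22 (edgeR adjusted p = 0.951). DMRTA1, which encodes a transcription factor of the doublesex family, rose in Surv-GFP (0.50) and fell in SurvNESmut-GFP (-0.61). MLLT3, a chromatin reader, fell in both (-0.82 and -0.81), and FOCAD and KLHL9 fell in Surv-GFP (-0.30 and -0.27). ELAVL2, an RNA-binding protein gene, rose in Surv-GFP (0.44), MIR31HG fell in SurvNESmut-GFP (-0.49), and IFNE, with 14 to 29 counts, passed in neither clone.

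The neighbours of CDKN2C on chromosome 1 were looked at after its counts had been seen. FAF1, which encodes a FAS-associated factor and lies next to CDKN2C, had 3 counts in all 8 libraries together, and C1orf185 on the other side had 0. DMRTA2, one gene farther than FAF1, had 0 as well. The next gene on the other side, RNF11, had 1852 to 2770 counts per library, and EPS15 and OSBPL9 beyond it had 1586 to 1884 and 1328 to 1594. ELAVL4, beyond DMRTA2, had 1 count in all, and BEND5, beyond ELAVL4, had 0 to 63 per library. TTC39A, between RNF11 and EPS15, had 5 in all, so that counted genes and genes near 0 alternated on that side. Whether these genes are present in the clones' DNA was not measured, and the counts do not tell a lost gene from a silent one.

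CDKN1C, by contrast, was counted beside neighbours of its imprinted cluster on chromosome 11. SLC22A18, a transporter gene, had 278 to 699 counts and PHLDA2, a placental growth regulator, 821 to 1422, while KCNQ1 had 0. KCNQ1OT1, the long non-coding RNA transcribed antisense within KCNQ1, had 111.9 and 124.5 CPM in untreated and 33.0 and 46.8 CPM in exposed Surv-GFP. In SurvNESmut-GFP it had 79.9 and 85.8 CPM untreated and 67.3 and 42.1 CPM with TMZ. It fell in both clones, by 1.57 ± 0.15 on the log2 scale in Surv-GFP and by 0.59 ± 0.15 in SurvNESmut-GFP (edgeR adjusted p = 1.88e-07 and 0.00567). Where KCNQ1OT1 and KCNQ1 overlap, their reads cannot be told apart without strand.

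**Figure D4:**
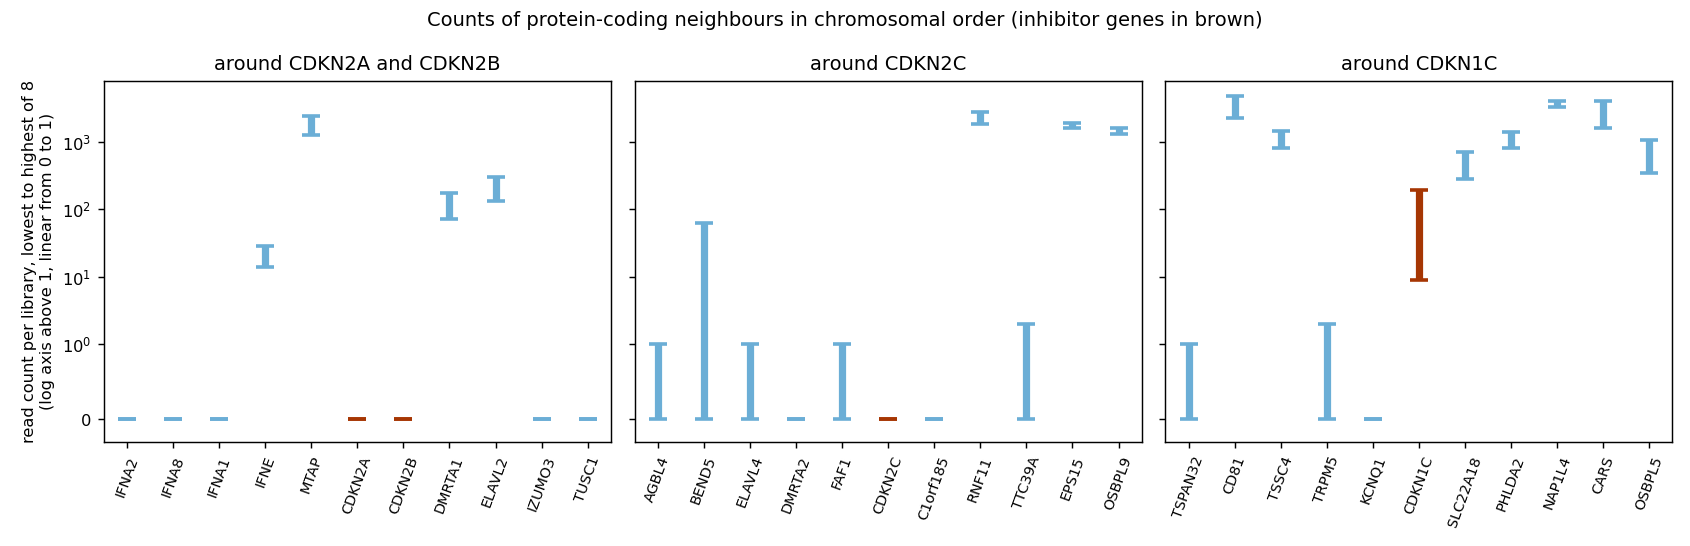
Read counts per library, from the lowest to the highest of the 8 (bars; log axis above 1, linear from 0 to 1), of protein-coding genes in chromosomal order around CDKN2A and CDKN2B, CDKN2C and CDKN1C. Inhibitor genes are brown. CDKN2A and CDKN2B were at 0 between MTAP and DMRTA1. CDKN2C was at 0 between FAF1, with 0 to 1 counts, and C1orf185, with 0. RNF11, next to C1orf185, had 1852 to 2770 counts.

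The genes whose libraries followed an inhibitor most closely were found by the root mean square difference of centred log2 CPM over the 8 libraries. For CDKN1A, whose own root mean square about its mean was 1.43, these were KLHDC7B (0.23), TNFSF9 (0.23), the gene of the 4-1BB ligand, and GADD45A (0.24), a DNA damage-inducible gene. These genes were close on this scale, which adds a prior count of 2, but their fitted effects differed from those of CDKN1A, most for KLHDC7B. The log2 fold changes of KLHDC7B were 5.74 in Surv-GFP and 2.71 in SurvNESmut-GFP, against 3.52 and 1.96 for CDKN1A. TNFSF9 had 3.20 and 2.17, and GADD45A 3.82 and 1.53. For CDKN1B (own value 0.40) they were C10orf90 (0.08), P4HA1 (0.10), a collagen prolyl hydroxylase gene, and IER5L (0.11). For CDKN1C (own value 1.36) they included ARRB1 (0.24), which encodes a beta-arrestin, and AIF1L (0.24). For CDKN2D (own value 0.34) they were CTNNB1 (0.05), which encodes beta-catenin, RNF26 (0.06) and PTRHD1 (0.07).

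Among 24 regulators of the inhibitor genes, all tested, 8 rose and 8 fell in Surv-GFP (median log2 fold change 0.05), and 7 rose and 5 fell in SurvNESmut-GFP (median -0.03). Over all tested genes the shares that rose and fell were 30.1% and 28.9% in Surv-GFP and 18.6% and 19.1% in the other clone, so that the Surv-GFP counts lie near this background. MDM2, which encodes a ubiquitin ligase induced by DNA damage, rose by 1.88 ± 0.07 in Surv-GFP and by 0.92 ± 0.07 in SurvNESmut-GFP, a difference of -0.96 ± 0.09 (edgeR adjusted p = 9.03e-07). KLF4, a transcription factor gene, rose by 2.70 ± 0.12 and by 1.34 ± 0.10, and TBX2, which encodes a repressor of CDKN1A and CDKN2A, fell in both clones (-1.45 and -1.49). TBX3, the gene of a related repressor, rose in both (1.17 and 0.35, edgeR adjusted p = 3.73e-09 and 0.00179).

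Of a list of kinases and cyclins around the inhibitors, 8 of 14 tested genes fell and 3 rose in Surv-GFP (median log2 fold change -0.25), where 28.9% of all tested genes fell and 30.1% rose. In SurvNESmut-GFP 5 fell and 3 rose (median -0.10), against 19.1% and 18.6% of all tested genes. The list held kinases and cyclins that the inhibitors bind, but also CDK7, CCNH and MNAT1, which are not counted as their targets. CDK7 and MNAT1 were among the genes that rose in Surv-GFP (0.45 and 0.39). In SurvNESmut-GFP they had -0.09 and -0.17 (edgeR adjusted p = 0.501 and 0.12). The cyclin gene CCNB1 fell by 1.79 ± 0.06 and by 1.53 ± 0.06 on the log2 scale, and CCNA2 by 1.59 ± 0.06 and by 0.71 ± 0.05. CCND1, a D-type cyclin gene, rose in both clones (0.62 and 0.23). CDK2 fell in Surv-GFP (-0.28), and its log2 fold change in SurvNESmut-GFP was 0.10 (edgeR adjusted p = 0.147). CDK6 and CDK4, the targets of the INK4 proteins, rose in SurvNESmut-GFP (0.35 and 0.21) and in Surv-GFP had 0.08 and 0.07 (edgeR adjusted p = 0.235 and 0.236).

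Downstream of the kinases, all 3 genes of the RB family fell in Surv-GFP, and 1, RBL2, fell in SurvNESmut-GFP. RB1 itself had log2 fold changes of -0.14 (edgeR adjusted p = 0.026) and -0.03 (edgeR adjusted p = 0.712). Of 17 RB and E2F target genes, 12 fell and 1, CDC6, rose in Surv-GFP (median -0.38), whereas 7 fell and 3 rose in SurvNESmut-GFP (median -0.04). The shares of all tested genes that fell were 28.9% and 19.1%, and those that rose 30.1% and 18.6%. The effect was higher in SurvNESmut-GFP for 13 of the 17 and lower for 1 (median difference 0.34), against 16.6% higher and 20.2% lower of all tested genes. The replication helicase genes MCM2 and MCM6 fell by 0.96 ± 0.05 and by 1.10 ± 0.05 in Surv-GFP and by 0.33 ± 0.05 and by 0.83 ± 0.05 in SurvNESmut-GFP. The proliferation genes MKI67 and TOP2A fell in both clones. BIRC5, listed with them, rose in Surv-GFP (0.81) and fell in SurvNESmut-GFP (-0.67). Its counts do not separate the plasmid from the cell's own gene, so the rise is not a reading of proliferation. The part of BIRC5 and of other clone differences in these values was not tested.

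Genes for the turnover of the inhibitor proteins had 8 lower and 4 higher of 15 in Surv-GFP (median -0.23), and 5 lower and 1 higher in SurvNESmut-GFP (median -0.02). All tested genes were lower in 28.9% and higher in 30.1% of cases in Surv-GFP, and in 19.1% and 18.6% in SurvNESmut-GFP. SKP2, the ubiquitin ligase subunit that marks p27, fell by 1.06 ± 0.07 in Surv-GFP (edgeR adjusted p = 3.35e-09), and its log2 fold change in SurvNESmut-GFP was 0.04 ± 0.07 (edgeR adjusted p = 0.674). The difference was 1.10 ± 0.10 (edgeR adjusted p = 4.3e-07). CDC20 and PCNA, partners of the ligases that mark p21, fell in both clones, CDC20 by 1.54 and by 1.17 and PCNA by 0.92 and by 0.34 on the log2 scale. DTL, the receptor of one of these ligases, rose in both clones (0.23 and 0.35, edgeR adjusted p = 0.00157 and 6.44e-05). COPS5, CDC34 and CKS1B, other parts of this machinery, rose in Surv-GFP (0.43, 0.47 and 0.45).

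**Figure D5:**
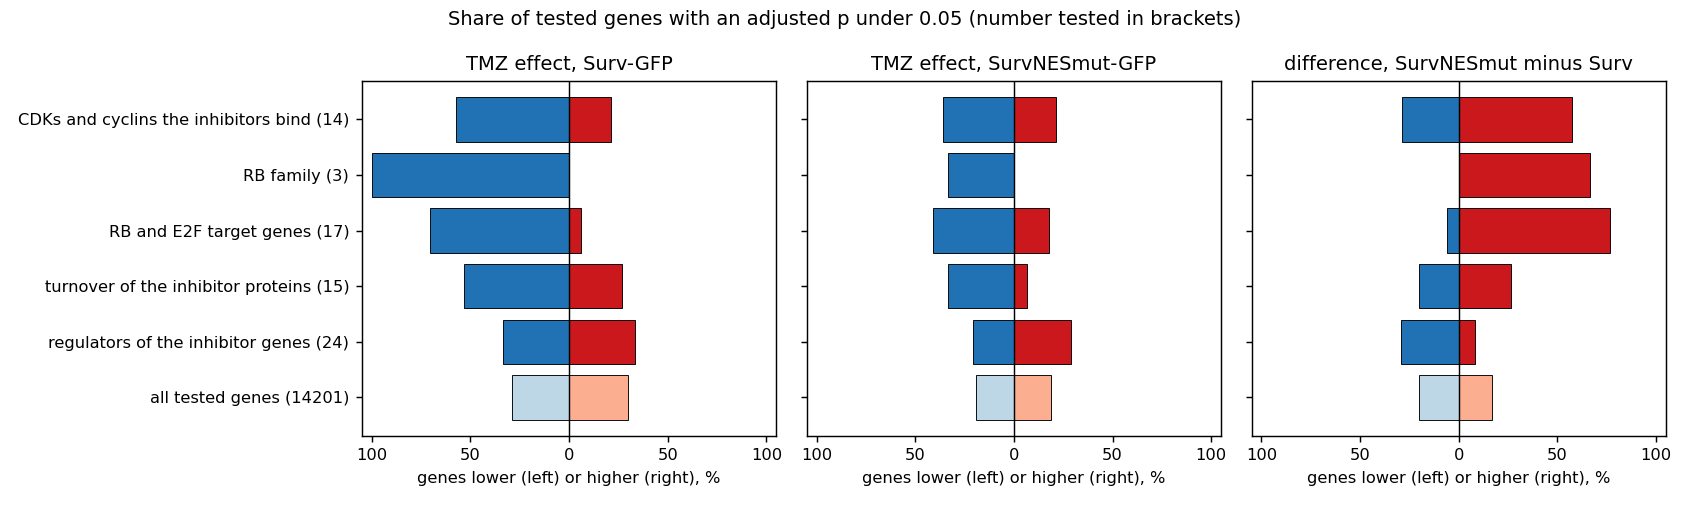
Share (%) of the tested genes of 5 lists around the CDK inhibitors called lower (blue, left) or higher (red, right) at an adjusted p under 0.05, beside all 14201 tested genes (pale). The list of CDKs and cyclins also holds CDK7, CCNH and MNAT1, which are not counted as targets of the inhibitors. RB and E2F target genes had 12 lower of 17 in Surv-GFP, against 7 in the other clone.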

How the data were processed

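Total RNA of 8 LN229 libraries was sequenced by the authors, and the deposited table holds their whole-number read counts per gene symbol, not normalized. The submitters' processing notes name STAR 2.5.0b, Cufflinks 2.2.1 and edgeR. Counting program, annotation, genome build and strandedness were not given in the sources used here. Rows for reads on no gene (11.2% to 14.3% of a library) or on several (1.19% to 1.28%) were left out. The authors' 5 comparison tables (log2 fold changes, CPM, F, p and FDR) were not used.

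Groups followed the sample labels. Counts were fitted in R 4.3.3 with edgeR 4.0.16 (TMM, filter by group, quasi-likelihood F test of the older edgeR versions, one model of 4 group means over 8 libraries), and Benjamini-Hochberg adjustment covered all 14201 tested genes, with a threshold of 0.05. CPM use TMM-scaled library sizes, and likeness used log2 CPM with a prior count of 2. Alternatives, with DESeq2 1.42.0 among them, are in the closing section. The scripts were tested on simulated data. Floors of 3 counts and 95% intervals at 0 counts cover counting error only, as reads carry no molecular identifiers here.

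All 7 inhibitors are reported. Of each list, named genes are at most the 3 with the smallest p in each direction and comparison, and all of the 9p21 neighbours, with BIRC5 and MDM2 added. A few genes that this rule selects, and a motif that was searched, are not reported here. The inhibitors and lists were chosen with earlier results of these data known.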

Additional observations from a re-analysis of the deposited data

Results flagged for a closer look

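The TMZ effect differed between the clones, by the test of the difference itself, for 3 of the 4 tested CDK inhibitors. Of all tested genes 16.6% were called higher and 20.2% lower in this comparison. Given as the log2 fold change in SurvNESmut-GFP minus that in Surv-GFP, the difference was -1.56 for CDKN1A (edgeR adjusted p = 5.06e-09), -0.73 for CDKN1B (edgeR adjusted p = 2.27e-05) and 1.23 for CDKN1C (edgeR adjusted p = 0.0326). CDKN1A rose in both clones, in both libraries of each. CDKN1B fell in SurvNESmut-GFP, and its log2 fold change of -0.12 in Surv-GFP did not pass. The CDKN1C value rests on 9 to 193 counts per library and lost its call in 6 of 14 alternative analyses. All 3 values compare 1 clone with 1 clone.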

How the results depend on the processing

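The 15 alternatives were 2 other scalings (DESeq2's size factors in edgeR, and library size alone), no filter, a replicate block, DESeq2, edgeR 4's own quasi-likelihood method, only the 4 libraries compared (which cannot give the difference of effects), and each of the 8 libraries left out. Where a group kept 1 library, it was assumed to vary like the other groups. Of 296 values of single inhibitors, 272 kept their direction and their side of the threshold, 11 lost a call, 11 gained one and 2 turned sign. The 2 that turned were the CDKN2D difference of TMZ effects, which was not called in any fit, with 0.015 for library size alone and 0.017 without Surv-GFP TMZ replicate b. Leaving out libraries moved it between -0.084 and 0.017. All CDKN1A calls held in each alternative, and its effect in Surv-GFP lay between 3.44 and 3.61 and in SurvNESmut-GFP between 1.86 and 2.06. The lost and gained calls of CDKN1B, CDKN1C and CDKN2D are given beside their results, and the cause was not tested. Scaling moved the median of all genes by at most 0.056 on the log2 scale.

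The letters are not stated to pair libraries, and deviations of a from b correlated between groups by -0.067 to 0.083. With the letter as a replicate block, 3 inhibitors were called in each TMZ effect, in their difference and between untreated clones, and 4 between exposed clones, and the call of no inhibitor changed. CDKN1C had 9 to 193 counts per library, and the 3 inhibitors at 0 are bounded only by counting error.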

Other observations

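Some genes carry an inhibitor's name without belonging to either family. Beside CDKN2B-AS1, 3 of them were tested. CDKN3, a phosphatase that acts on CDKs, fell by 0.43 ± 0.10 in Surv-GFP and by 0.87 ± 0.09 in SurvNESmut-GFP on the log2 scale (edgeR adjusted p = 0.0012 and 1.2e-06). CDKN2AIP, which encodes a binding partner of ARF, moved in opposite directions, rising by 0.32 ± 0.07 on the log2 scale in Surv-GFP and changing by -0.29 ± 0.08 in SurvNESmut-GFP (edgeR adjusted p = 0.00053 and 0.0127), and the difference was -0.61 ± 0.11 (edgeR adjusted p = 0.000308). CDKN2AIPNL, its smaller relative, fell in Surv-GFP (-0.19) and had 0.09 in SurvNESmut-GFP (edgeR adjusted p = 0.304). The transcript of CDKN2A, the ARF gene itself, had 0 counts in each library.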
